A study of Ovis aries with 41 samples.

Results

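HOX genes encode homeodomain transcription factors that give cells their position along the head-to-tail axis, and they lie in clusters in which the order of the genes follows the order in which they are used along the body. In the HOXB cluster the anterior genes stand at one end and HOXB13, separated from the others by a long interval, stands at the posterior end. HOXB13 is known from mouse mutants to limit growth at the end of the tail, and adult skin cells of several species keep a HOX pattern that reflects where on the body they came from. The genes described here are the 9 HOXB genes HOXB2, HOXB3, HOXB4, HOXB5, HOXB6, HOXB7, HOXB8, HOXB9 and HOXB13, taken by symbol from a table of 31182 genes. The question was whether the tail gradient of HOXB13, and its difference between HOXB13 alleles, extends to the genes beside it.

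Skin was taken from 7 rams of the Improved Jezersko–Solčava breed, a sheep breed in which an ancestral allele A and a derived allele D of HOXB13 both occur. The derived allele, found with long tails, carries an insertion in the HOXB13 promoter. The rams were 4 A/A homozygotes (835507, 871772, 871784 and 871932) and 3 D/D homozygotes (871787, 871868 and 871869), with no treatment named in the labels. Skin of every ram was sampled at 3 tail positions, called base, mid-tail and tip. Because the mid-tail and tip were located on tails of unequal length, the distance from the base was not the same in the A/A and D/D rams. Alleles at other loci were not matched by the design as far as the labels show, so the HOXB13 allele and the rest of the genetic background cannot be told apart.

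Counts came from 41 RNA-seq libraries of 9177395 to 23431409 counts. The 2 libraries of a ram at a position (1 for D/D ram 871869 at the mid-tail) were added, which left 21 sums of 17132063 to 37645752 counts. Values below are CPM of these sums, which are counts scaled to a common depth by TMM, with rams as the replicates, and fold changes are on the log2 scale. Keratinocyte genes were high, as in skin: KRT5, a keratin of the basal epidermis, was at 4174 to 9504 CPM in all sums. Markers of cartilage and bone were low, from 3.32 to 9.64 CPM summed over the 6 genes, and IBSP, a bone matrix protein gene, was at 0 in every sum. In skin samples of this kind, fewer cells of a type and less RNA per cell cannot be told apart.

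On the ARS-UI_Ramb_v3.0 assembly all 9 genes lie on chromosome 11. HOXB13 spans positions 37525009 to 37530787, and 64948 bases separate its end from the start of HOXB9 at 37595736. The other 8 genes occupy the 85443 bases from there to the end of HOXB2 at 37681178. Their annotated spans overlap: HOXB4 lies wholly inside HOXB3 (2860 bases), HOXB8 lies wholly inside HOXB7 (13557 bases), and HOXB9 shares 4682 bases with each of HOXB7 and HOXB8. HOX genes of a cluster are read from one strand, so counting by strand does not separate overlapping exons, and the split of counts among HOXB7, HOXB8 and HOXB9, and between HOXB3 and HOXB4, is uncertain. HOXB1, the next gene of the cluster and not among the 9, had 7 counts in all 21 sums.

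HOXB13 had at most 1 count at the base of any ram and was present at the tip in every ram. Its counts at the base, mid-tail and tip were 1, 19 and 198 in A/A ram 835507, 0, 58 and 192 in 871772, 1, 12 and 97 in 871784, and 0, 128 and 100 in 871932. In D/D rams they were 0, 2 and 25 in 871787, 0, 5 and 17 in 871868, and 1, 1 and 7 in 871869. Every ram had more HOXB13 (CPM) at the mid-tail than at the base and more at the tip than at the mid-tail, and 3.28% of all tested genes were higher at the tip than at the base in 7 of 7 rams. In 871869, though, the base and mid-tail held 1 count each. Its mid-tail CPM (0.0576 against 0.0309) was higher only because that sum, of 1 library, was smaller. In 871932, however, the tip (4.15 CPM) was barely above the mid-tail (3.94 CPM), whereas in 835507 the tip (6.52 CPM) was far above it (0.769 CPM). Scaled by library totals without TMM, the 2 libraries of 871932 were at 4.50 and 3.59 CPM at the mid-tail and 4.05 and 3.62 CPM at the tip. On that scale the mid-tail sum of 871932 was above its tip sum, so the order in this ram depended on the scaling.

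Because the base held only 2 counts in the 4 A/A rams together and 1 in the 3 D/D rams, fold changes against it are imprecise. The summed tip signal was 250-fold that of the base in A/A rams (95% exact interval 68.9 to 2069) and 49.1-fold that of the base in D/D rams (8.41 to 1977). These intervals cover counting error only. Between the 2 distal positions, where counts were larger, the tip was 2.58-fold the mid-tail in A/A rams (2.21 to 3.03) and 5.04-fold the mid-tail in D/D rams (2.37 to 12.3). The fitted changes against the base below carry the same limit.

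**Figure D1:**
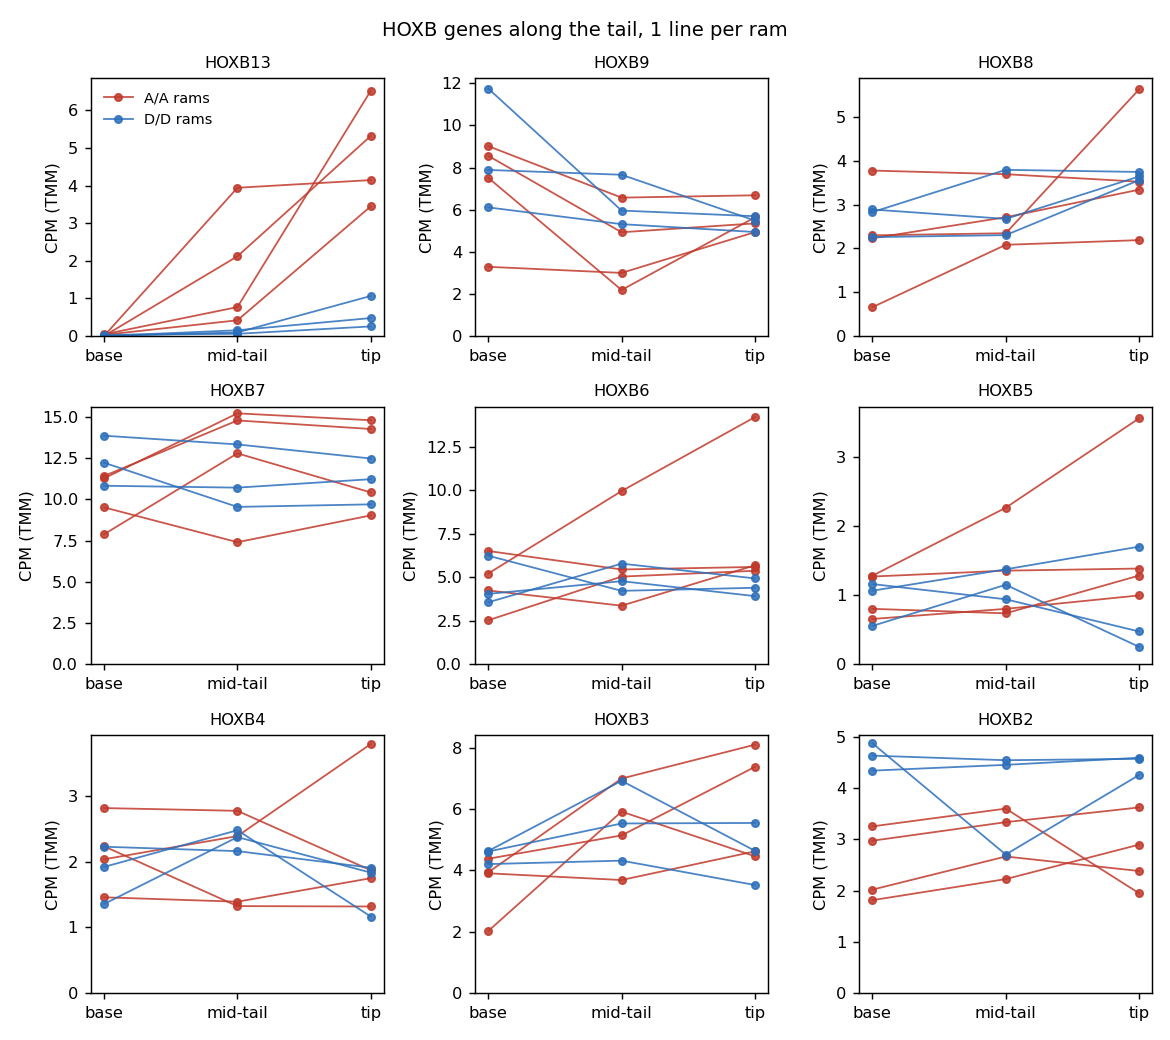
CPM (TMM-scaled, vertical axes starting at 0) of each of the 9 HOXB genes at 3 tail positions, each ram drawn as a line (4 A/A in red, 3 D/D in blue) and genes in cluster order from HOXB13 to HOXB2. The HOXB13 lines start near 0 and separate by genotype towards the tip, at 3.45 to 6.52 CPM in A/A rams and 0.254 to 1.06 CPM in D/D rams, while the lines of the other genes start well above 0.

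Of the 9 genes, edgeR called only HOXB13 along the tail, while DESeq2 on the same sums also called HOXB3 at the A/A tip and HOXB8 at the tip over the 7 rams. Over all genes DESeq2 called 841 and 1503 in these 2 comparisons, against 308 and 855 with edgeR. The quasi-likelihood test of edgeR had ram as a block and Benjamini-Hochberg adjustment over 19029 genes. In this test HOXB13 rose at the tip over the 7 rams (log2 fold change 6.40, SE 0.65, adjusted p = 0.00011), where 4.49% of all tested genes passed. It also passed at the A/A tip (7.72, SE 0.76, adjusted p = 0.00049; 1.62% of genes) and at the A/A mid-tail (5.99, SE 0.82, adjusted p = 0.0198; 0.0263% of genes). At the D/D tip, where 0.583% of genes passed, the log2 fold change of 5.08 (SE 1.10) had an adjusted p of 0.0501, just outside the threshold, and with DESeq2 it was 5.40 with an adjusted p of 0.0043. The D/D mid-tail, where 0.0% of genes passed, gave 2.75 (SE 1.46, adjusted p = 0.75) for HOXB13. Over the 7 rams the mid-tail value was 4.37 (SE 0.87, adjusted p = 0.0685), with 0.137% of genes passing. The A/A mid-tail call was lost when ram 871772, 871932 or 871869 was left out (adjusted p = 0.0818, 0.124 and 0.0583) and with limma-voom (adjusted p = 0.0792).

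None of the 8 neighbours passed edgeR's test at the tip or the mid-tail, in either genotype or over the 7 rams. At the tip over the 7 rams their log2 fold changes lay between -0.45 for HOXB9 and 0.63 for HOXB8, with a median of 0.10 against -0.02 for all genes. In 3 of the 8 the unadjusted p was under 0.05 (HOXB3, HOXB8 and HOXB9), as it was for 3495 of the 19029 genes. In A/A rams alone the median of the neighbours at the tip was 0.45, against -0.01 for all genes, and in D/D rams alone it was -0.10, against -0.02 for all genes.

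HOXB8, a posterior HOX gene that regulates axial skeleton and blood progenitors in mice, was the neighbour nearest to the threshold. At the tip it had 5.63, 2.19, 3.34 and 3.52 CPM in A/A rams 835507, 871772, 871784 and 871932, against 2.30, 0.657, 2.23 and 3.78 CPM at the base of the same rams. In D/D rams 871787, 871868 and 871869 it had 3.75, 3.64 and 3.56 CPM at the tip, against 2.83, 2.89 and 2.26 CPM at the base. The tip was above the base in 6 of 7 rams, with 871932 the exception. With edgeR over the 7 rams HOXB8 gave a log2 fold change of 0.63 (SE 0.21, unadjusted p = 0.0079, adjusted p = 0.10), and it was 0.80 (SE 0.28) in A/A rams and 0.47 (SE 0.31) in D/D rams. With DESeq2 the value over the 7 rams passed (0.64, adjusted p = 0.038).

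HOXB3 is an anterior HOX gene of the hindbrain, and its values differed between tip and base in A/A rams more than in D/D rams. It had 8.10, 4.46, 4.62 and 7.38 CPM at the tip of 835507, 871772, 871784 and 871932, against 3.93, 2.02, 3.91 and 4.38 CPM at their base. In D/D rams 871787, 871868 and 871869 it had 4.64, 5.55 and 3.52 CPM at the tip, against 4.63, 4.62 and 4.21 CPM at the base. All 4 A/A rams were thus higher at the tip, whereas the D/D rams scattered around no difference. The log2 fold change was 0.76 (SE 0.22, adjusted p = 0.11) in A/A rams and 0.01 (SE 0.26, adjusted p = 0.99) in D/D rams. With DESeq2 the A/A value passed (0.75, adjusted p = 0.033). The difference between the A/A and D/D changes was 0.75 (SE 0.34, unadjusted p = 0.044, adjusted p = 0.79) in edgeR. Over the 7 rams HOXB3 gave 0.38 (SE 0.17, adjusted p = 0.24) at the tip and 0.45 (SE 0.17, adjusted p = 0.34) at the mid-tail.

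HOXB9, the nearest of the 8 neighbours to HOXB13 and one that patterns the thoracic skeleton in mice, had lower values away from the base. Its mid-tail CPM was 2.18, 3.00, 6.57 and 4.93 in A/A rams 835507, 871772, 871784 and 871932, against 7.52, 3.29, 9.02 and 8.56 at the base. In D/D rams 871787, 871868 and 871869 it was 5.31, 5.96 and 7.66 at the mid-tail, against 6.11, 11.8 and 7.89 at the base. The mid-tail was below the base in 7 of 7 rams, which held for 2.08% of all tested genes, although the drop was very small in 871772 and 871869. Over the 7 rams the mid-tail log2 fold change was -0.60 (SE 0.19, unadjusted p = 0.0063, adjusted p = 0.24). At the tip it was -0.45 (SE 0.19, adjusted p = 0.21), with the tip below the base in 6 of 7 rams. In A/A rams alone the mid-tail value was -0.78 (SE 0.25, adjusted p = 0.32), and in D/D rams alone the tip value was -0.65 (SE 0.28, adjusted p = 0.36).

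The remaining 5 neighbours lay within 2 SE of 0 at the tip over the 7 rams. HOXB7, which acts in thoracic patterning in mice, gave 0.05 (SE 0.12) at the tip over the 7 rams, the smallest SE of the 9 genes. HOXB2, which specifies hindbrain segments, gave 0.04 (SE 0.17), HOXB4, known for its role in blood stem cells, gave -0.10 (SE 0.22), HOXB5, which acts in gut neurons and the shoulder region in mice, gave 0.15 (SE 0.28), and HOXB6 gave 0.29 (SE 0.20). In none of these 5 genes were more than 5 of the 7 rams on one side at the tip, whereas 26.8% of all tested genes had at least 6 rams on one side, as had HOXB3, HOXB8, HOXB9 and HOXB13. HOXB6 at the A/A tip gave 0.65 (SE 0.26, adjusted p = 0.27), and this rested partly on ram 835507, at 14.2 CPM against 5.38 to 5.69 CPM in the other A/A rams.

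**Figure D2:**
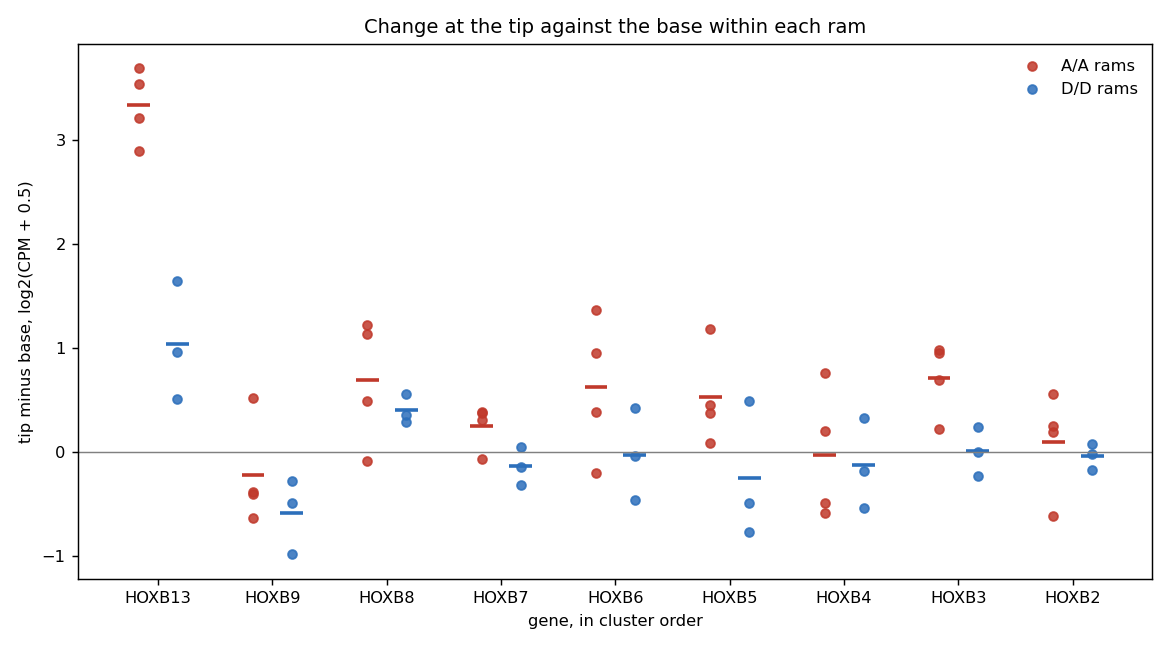
Difference between the tip and the base of each ram in log2(CPM + 0.5) (vertical axis), for the 9 HOXB genes in cluster order (horizontal axis), with 1 point per ram, A/A rams in red on the left and D/D rams in blue on the right of each gene, and a bar at the group mean. HOXB13 averaged 3.34 in A/A rams and 1.04 in D/D rams, and no ram of any gene except HOXB13 exceeded 1.36.

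The change of HOXB13 was then set directly against that of each neighbour within the ram, in log2(CPM + 0.5), where the pseudocount holds down changes from counts near 0. On this scale HOXB13 at the tip was above the base by 3.34 ± 0.35 in A/A rams (SD, n = 4) and by 1.04 ± 0.57 in D/D rams (SD, n = 3). The tip change of HOXB13 exceeded that of HOXB9 by 2.73, of HOXB4 by 2.42, of HOXB2 by 2.31, of HOXB7 by 2.27, of HOXB5 by 2.16, of HOXB6 by 2.01 and of HOXB3 by 1.94 on average, in 7 of 7 rams each. Against HOXB8 the excess was 1.79, in 6 of 7 rams. The exact two-sided sign-flip test over 7 rams gave p = 0.0156 for each of the other 7 neighbours, the smallest value it can give, and p = 0.0312 for HOXB8. The 8 tests share HOXB13, and these p-values were not adjusted.

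The allele comparison asked whether A/A and D/D rams differ at the same position. HOXB13 at the tip was at 6.52, 5.32, 3.45 and 4.15 CPM in A/A rams 835507, 871772, 871784 and 871932, against 1.06, 0.476 and 0.254 CPM in D/D rams 871787, 871868 and 871869. At the mid-tail it was at 0.769, 2.12, 0.417 and 3.94 CPM in the same A/A rams, against 0.0949, 0.152 and 0.0576 CPM in the D/D rams. The groups did not overlap at either position, which held for 15.1% of all tested genes at the tip and 8.17% at the mid-tail. The summed A/A signal was 8.75-fold that of D/D at the tip (95% exact interval 6.53 to 11.97) and 17.1-fold that of D/D at the mid-tail (8.51 to 40.1), where D/D rams gave only 8 counts. These ratios weight each ram by its depth and cover counting error only.

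In edgeR's test on the 7 ram sums of a position no gene passed at the base, mid-tail or tip (0.0% of 17738, 17996 and 17842 genes), while 567, 1014 and 1824 genes had an unadjusted p under 0.05 and DESeq2 called 18, 31 and 65 genes. HOXB13 was too low at the base to be tested. At the tip its log2 fold change, A/A over D/D, was 3.05 (SE 0.51, unadjusted p = 0.00033, adjusted p = 0.46). The mid-tail value was 4.02 (SE 0.90, unadjusted p = 0.0011, adjusted p = 0.85). With DESeq2 it passed at both, with values of 3.05 at the tip, adjusted p 2.87e-06, and of 4.11 at the mid-tail, adjusted p 0.0062. The call for HOXB13 between alleles therefore depended on the tool, while its direction was the same. The difference of the tip change, A/A minus D/D, was 2.64 (SE 2.90, computed from the F statistic and wider than the SEs of the separate changes would give, adjusted p = 0.87), and it was 0.39 without D/D ram 871869, and the 3 base sums of D/D rams hold 1 count in all. In that comparison 0.0% of genes passed (edgeR; 1159 genes had an unadjusted p under 0.05, and DESeq2 called 15).

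Unlike HOXB13, most neighbours overlapped between the alleles at the tip. The log2 fold changes, A/A over D/D, were 0.08 (SE 0.20) for HOXB9, 0.02 (SE 0.33) for HOXB8, 0.13 (SE 0.22) for HOXB7, 0.82 (SE 0.40) for HOXB6, 1.19 (SE 0.73) for HOXB5, 0.43 (SE 0.43) for HOXB4, 0.43 (SE 0.30) for HOXB3 and -0.71 (SE 0.27) for HOXB2. Only HOXB6 and HOXB2 did not overlap between alleles at the tip, in opposite directions, against 15.1% of all tested genes. None of the 8 neighbours had an adjusted p under 0.05. The tip change was larger in A/A than in D/D rams in all 9 genes by edgeR's estimate, by 0.14 (HOXB4) to 1.15 (HOXB5) in the neighbours, with a median of 0.39 against 0.00 for all genes. None of these differences passed, only that of HOXB3 had an unadjusted p under 0.05, and with library 2 alone those of HOXB2, HOXB4 and HOXB9 had the other sign. The same lean was seen in the other HOX clusters, so it was not particular to HOXB. The median difference was 0.46 for HOXA (10 of 11 genes larger in A/A), 0.58 for HOXC (7 of 8) and 0.60 for HOXD (6 of 6). The tip difference of HOXB13, A/A minus D/D in log2(CPM + 0.5), exceeded that of the neighbours by 1.46 (HOXB5) to 2.98 (HOXB2), and the exact two-sided permutation test of 4 against 3 rams gave p = 0.0286 for each of the 8, the smallest it can give. These 8 tests share HOXB13, whose own values did not overlap between the alleles at the tip, so they are not 8 separate results. Their p-values were not adjusted.

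**Figure D3:**
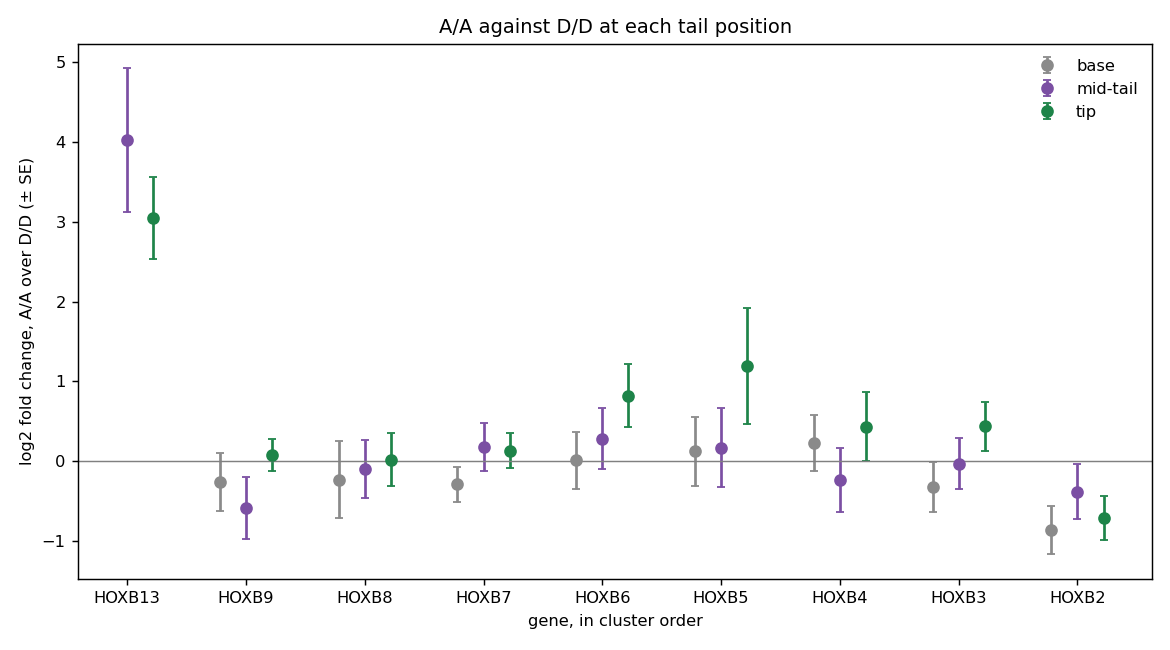
Fold change between A/A and D/D rams (log2 of A/A over D/D, vertical axis, edgeR, bars are SE) at the base (grey), mid-tail (purple) and tip (green) for the 9 HOXB genes in cluster order; HOXB13 has no point at the base because it was too low to test. HOXB13 stands at 4.02 and 3.05 at the mid-tail and tip, while the neighbours lie between -0.87 (HOXB2, base) and 1.19 (HOXB5, tip).

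HOXB2 was lower in A/A rams, opposite to HOXB13. At the base it had 1.81, 2.02, 2.98 and 3.26 CPM in A/A rams 835507, 871772, 871784 and 871932, against 4.35, 4.88 and 4.64 CPM in D/D rams 871787, 871868 and 871869. At the tip it had 2.90, 2.38, 3.63 and 1.95 CPM in those A/A rams, against 4.60, 4.26 and 4.58 CPM in the D/D rams. The A/A rams were below the D/D rams without overlap at both, which held at the base for 4.71% of all tested genes in either direction. At the mid-tail the groups overlapped through D/D ram 871868, at 2.71 CPM there. The log2 fold changes were -0.87 (SE 0.30, unadjusted p = 0.017, adjusted p = 1.00) at the base and -0.39 (SE 0.35, adjusted p = 0.89) in mid-tail skin. The tip gave -0.71 (SE 0.27, unadjusted p = 0.030, adjusted p = 0.46).

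HOXB6 was above D/D in every A/A ram at the tip, at 14.2, 5.38, 5.69 and 5.60 CPM in A/A rams 835507, 871772, 871784 and 871932, against 4.94, 4.40 and 3.92 CPM in D/D rams 871787, 871868 and 871869. Apart from 835507 the groups lay close together. HOXB5 at the tip reached 3.56 CPM in 835507, with 0.998 to 1.39 CPM in the other A/A rams, against 0.254 to 1.70 CPM in D/D rams. Its tip change differed between the alleles by 1.15 (SE 0.55, unadjusted p = 0.053, adjusted p = 0.79). Ram 835507 also had the highest HOXB4, HOXB8, HOXB3 and HOXB7 of the A/A rams at the tip.

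The share of HOXB13 among the counts of the 9 genes does not depend on library scaling. It was 10.02, 14.1, 8.81 and 9.14% at the tip of A/A rams 835507, 871772, 871784 and 871932, against 2.67, 1.32 and 0.749% in D/D rams 871787, 871868 and 871869. The 95% exact intervals of the A/A rams began at 7.20% and those of the D/D rams ended at 3.91%. The alleles did not overlap in this share, which contains the HOXB13 counts already described and is given without a test. At the mid-tail the shares were 1.73, 5.92, 1.38 and 8.75% in the A/A rams, against 0.218, 0.448 and 0.152% in the D/D rams. At the base no ram exceeded 0.125%, and the intervals of rams with a count of 0 reached up to 0.841%.

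**Figure D4:**
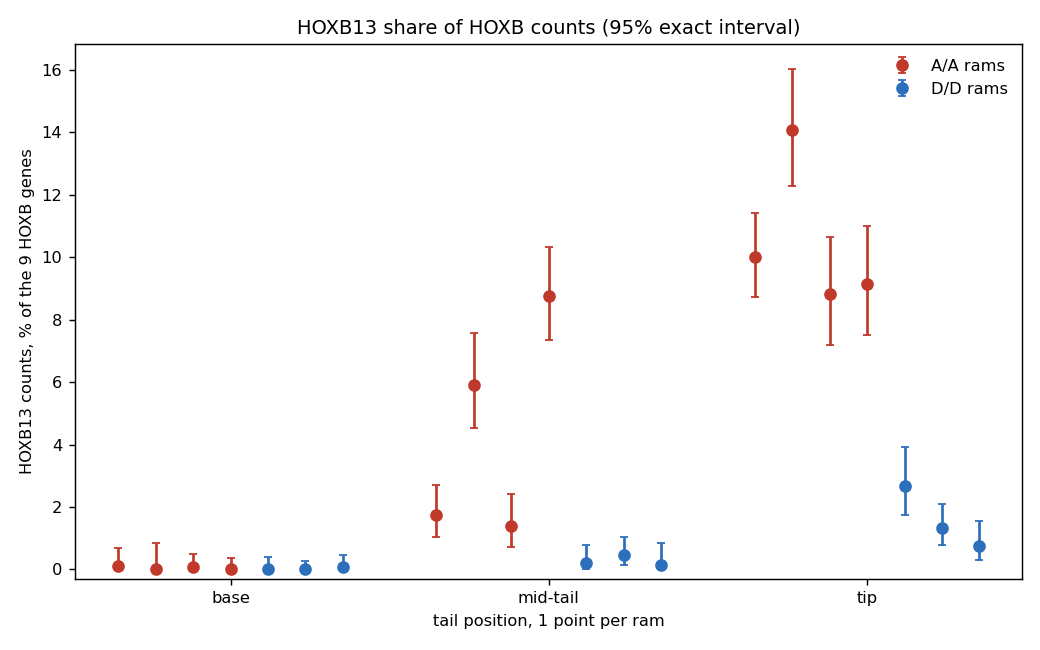
HOXB13 counts as a percentage of the summed counts of the 9 HOXB genes (vertical axis) for each ram at the base, mid-tail and tip (horizontal axis), with A/A rams in red to the left of D/D rams in blue and 95% exact (Clopper-Pearson) intervals. At the tip the A/A rams lie between 8.81 and 14.1% and the D/D rams between 0.749 and 2.67%.

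Libraries of the same ram and position were compared gene by gene. Among the 162 library pairs in which a HOXB gene had at least 20 counts, the CPM of the libraries differed by a median of 1.24-fold, and 12 pairs differed by more than 2-fold. For HOXB13 2 of 7 such pairs did, both from A/A ram 871772: 43 and 15 counts at the mid-tail and 117 and 75 counts at the tip. HOXB5 in the same mid-tail sample had 22 counts in one library and 0 in the other. HOXB3 and HOXB7 had no pair beyond 2-fold among 20 each.

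Correlations between the members are given as a description. Over the 21 sums, which share rams and positions, Pearson's r of log2(CPM + 0.5) was 0.75 between HOXB3 and HOXB6, 0.71 between HOXB3 and HOXB7, and 0.70 between HOXB6 and both HOXB4 and HOXB5. With HOXB13 it was 0.50 for HOXB3 and HOXB6, -0.29 for HOXB2 and -0.36 for HOXB9. After the mean of each ram was taken out, the highest r of any pair was that of HOXB8 with HOXB13 (0.74), followed by HOXB3 with HOXB6 (0.72), and r with HOXB13 was 0.66 for HOXB3 and -0.24 for HOXB9. HOXB9 was thus the member least like HOXB13 by either measure.

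RNAs annotated between the HOXB genes were read as well, chosen after their values were seen. LOC105608416, a long non-coding RNA gene at 37670072 to 37677221 that overlaps HOXB3 and HOXB2, had 22.5, 6.21, 6.33 and 9.83 CPM at the tip of A/A rams 835507, 871772, 871784 and 871932, against 9.51, 1.69, 3.97 and 6.35 CPM at their base. In D/D rams 871787, 871868 and 871869 it had 5.58, 5.30 and 5.96 CPM at the tip, against 6.60, 5.15 and 5.69 CPM at the base. It rose at the A/A tip (log2 fold change 1.06, SE 0.19, adjusted p = 0.011), where all 4 rams were higher and 1.62% of all tested genes passed. At the D/D tip it gave -0.04 (SE 0.22). The difference between these changes was 1.10 (SE 0.29, unadjusted p = 0.0015, adjusted p = 0.58). This resembles HOXB3, with which it shares annotated bases.

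In the interval between HOXB13 and HOXB9 1 annotated RNA fell at the tip. LOC121820606, a long non-coding RNA gene at 37547423 to 37579070, had 1.22, 1.39, 2.28 and 2.45 CPM at the tip of A/A rams 835507, 871772, 871784 and 871932, against 2.21, 1.97, 5.08 and 3.86 CPM at their base. In D/D rams 871787, 871868 and 871869 it had 1.19, 1.60 and 3.70 CPM at the tip, against 1.76, 2.92 and 6.90 CPM at the base. It fell at the tip over the 7 rams (log2 fold change -0.79, SE 0.16, adjusted p = 0.011), where 4.49% of all tested genes passed. Its tip was below its base in 7 of 7 rams, while 26.8% of all tested genes had at least 6 rams on one side. LOC121820604, a gene beside it that reaches into HOXB9, gave -1.22 (SE 0.34, adjusted p = 0.0513). LOC121820603 and TTLL6, a tubulin-modifying enzyme gene, lie on the far side of HOXB13 and had 30 and 42 counts in all 21 sums, too few to describe.

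**Figure D5:**
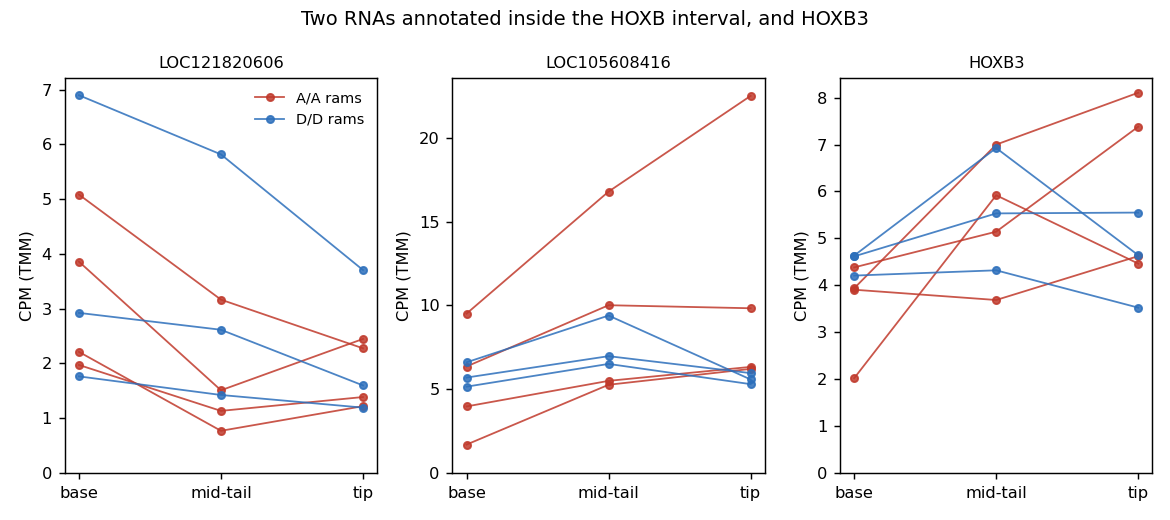
CPM (TMM-scaled, vertical axes starting at 0) at the base, mid-tail and tip of LOC121820606, between HOXB13 and HOXB9, of LOC105608416, which overlaps HOXB3 and HOXB2, and of HOXB3, with 1 line per ram (A/A red, D/D blue). LOC121820606 is lower at the tip than at the base in all 7 rams, and LOC105608416 is higher at the tip in all 4 A/A rams.

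The other HOX clusters were counted to place the HOXB genes. At the tip over the 7 rams 6 of 11 HOXA genes rose and none fell, 2 of 8 tested HOXC genes rose and 2 fell, and none of 6 tested HOXD genes changed, against 1 of 9 HOXB genes that rose and 4.49% of all tested genes called in either direction. The largest HOXA change was that of HOXA13, the paralog of HOXB13 that patterns digits and the urogenital tract (2.49, SE 0.26, adjusted p = 0.00011), and HOXA11 (1.47), HOXA10 (1.13) and HOXA6 (0.99) also rose. HOXC10 (1.35) and HOXC11 (1.12) rose, while HOXC5 (-0.92) and HOXC6 (-0.71), which are more anterior, fell. The median log2 fold change was 0.65 for HOXA, -0.22 for HOXC and -0.04 for HOXD genes, against -0.02 for all genes. HOXC13, a paralog of HOXB13 that is needed for hair, gave -0.30 (SE 0.18, adjusted p = 0.41) over the 7 rams. At the tip HOXC13 gave -0.70 (SE 0.24, unadjusted p = 0.010, adjusted p = 0.17) in A/A rams and 0.10 (SE 0.27, adjusted p = 0.92) in D/D rams. The difference of these HOXC13 changes was -0.79 (SE 0.36, unadjusted p = 0.043, adjusted p = 0.79). HOXD13 was too low to test.

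HOXA13 rose at the tip in A/A rams (2.39, adjusted p = 0.0031) and in D/D rams (2.60, adjusted p = 0.0078). It was at 5.19 ± 1.89 CPM at the tip and 1.02 ± 0.46 CPM at the base of A/A rams (SD, n = 4), and at 5.14 ± 2.31 CPM at the tip and 0.83 ± 0.49 CPM at the base of D/D rams (SD, n = 3). Its log2 fold change at the tip, A/A over D/D, was 0.02 (SE 0.39, adjusted p = 0.98), and that of HOXB13 was 3.05; the difference of these was not tested. Over the 21 sums its r with HOXB13 was 0.58, which placed it 271st of 13542 genes.

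The 5 genes whose pattern was most like HOXB13 over the 21 sums were VWA2, an extracellular matrix protein gene (r = 0.86), LGR6, an R-spondin receptor of skin appendages (0.83), PAX1, a transcription factor of the ventral somite (0.80), COL12A1, a fibril-associated collagen gene (0.80), and ACOX2, a peroxisomal oxidase gene (0.79). LGR6 averaged 8.78 CPM at the A/A tip against 2.01 CPM at the D/D tip. It was also higher in A/A rams at the mid-tail (5.97 against 1.66 CPM) and, unlike HOXB13, at the base (2.60 against 1.02 CPM). These genes were chosen over sums that include the allele difference. For HOXB9 the most similar were MTIF3, SRSF7, FTSJ1, SLC45A3 and IGDCC3, at r of 0.76 to 0.79. No HOX gene was among either 5.

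Lists of genes that work with or on HOX genes were read at the tip over the 7 rams, where 4.49% of all tested genes passed. Of 9 HOX cofactor genes 1 fell (PKNOX2, a TALE homeodomain protein gene, -0.54), and of 15 retinoic acid genes 1 fell (ALDH1A3, an enzyme that makes retinoic acid, -0.65). None of 12 tested flanking genes, 4 tested axial regulators and 17 chromatin regulators passed (edgeR). The list medians lay between -0.16 and 0.23, against -0.02 for all genes.

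Summed cell type markers differed between tip and base. The 6 fibroblast markers summed to 3189 to 12930 CPM at the tip and 13171 to 21219 CPM at the base of A/A rams, and to 5717 to 12836 CPM at the tip and 10091 to 17145 CPM at the base of D/D rams, lower at the tip in 7 of 7 rams. The 5 counted keratinocyte markers were higher at the tip in 6 of 7 rams, from 19255 to 34230 CPM at the A/A tip and 16406 to 39694 CPM at the D/D tip, against 11697 to 24445 CPM at the A/A base and 11559 to 21293 CPM at the D/D base. The 5 immune markers (CD68 at 0 in every sum) were lower at the tip in 7 of 7 rams, and the 4 counted wool follicle markers and the 6 cartilage and bone markers were higher there in 6 of 7, although the median log2 fold change of the wool follicle genes was -0.31. Among single genes, 26.8% of all tested genes had at least 6 of 7 rams on one side at the tip. Of the 6 adipocyte markers 3 fell at the tip over the 7 rams, where 4.49% of all tested genes passed. The adipocyte list median was -1.72 against -0.02 for all genes.

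Between the alleles the immune marker sums did not overlap at the tip or mid-tail. Among single genes this held for 15.1% of all tested genes at the tip and 8.17% at the mid-tail. The immune markers summed to 37.4 to 81.5 CPM at the A/A tip against 23.2 to 34.3 CPM at the D/D tip. At the mid-tail they summed to 48.6 to 131.6 CPM in A/A rams against 43.1 to 47.2 CPM in D/D rams, a narrow gap. At the base the sums overlapped, although the list median of the log2 fold change, A/A over D/D, was already 0.66. The wool follicle markers did not overlap at the mid-tail, with 566 to 3644 CPM in A/A rams against 4482 to 4854 CPM in D/D rams. Nor did the 4 counted prostate and hindgut markers, with 6.93 to 9.02 CPM in A/A rams against 4.32 to 6.68 CPM in D/D rams. Fibroblast and keratinocyte sums overlapped between the alleles at the tip. The part of these marker differences in the HOXB values was not tested.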

How the data were processed

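Per the labels and the methods, the authors extracted RNA from sheep tail skin, selected it with oligo(dT), made CorALL libraries, checked reads with FastQC 0.11.9, aligned them with ContextMap 2 (using BWA) against the ARS-UI_Ramb_v3.0 assembly, and deposited whole counts per RefSeq gene from strand-specific featureCounts. The tip columns of the deposited table, called estimated counts here in name only, came from ContextMap 2 alignments counted with featureCounts, like other columns. They hold whole counts, as do the base and mid-tail columns. Of 31182 genes, 4594 had no count. All 41 libraries were used; libraries of a ram and position were added, since they share an animal.

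Tests were edgeR 4.0.16 (quasi-likelihood, TMM, filterByExpr) in R 4.3.3 with limma 3.58.1, Benjamini-Hochberg adjusted over all tested genes, threshold 0.05. Position contrasts had ram as a block, as the 3 positions come from the same animal: deviations of same-ram sums correlated in 20 of 21 pairs above 0.1 (median 0.48). Genotypes were compared per position. The SE was derived from F. DESeq2 1.42.0, limma-voom, RLE, no filter, single libraries, either library alone, no block and each ram left out were alternatives. Exact tests used log2(CPM + 0.5); SciPy 1.17.1 gave intervals. The fits were tested on simulated data. The named genes were the 9 HOXB genes; other listed genes if called (at most 4 per list) or HOX13 paralogs; and the 5 most correlated with HOXB13 or HOXB9. The members, lists and tests were chosen with earlier results of these data known, and the HOXB13 share was added after the data were seen. No sequence is printed, as none was used here.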

Additional observations from a re-analysis of the deposited data

Results flagged for a closer look

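Among 45 sets of HOXB values examined (the 4 A/A rams at each position, and the changes of the 7 rams against the base), 4 held a ram far from the others by Dixon's test, and chance alone marks about 1 in 20 such sets. HOXB5 and HOXB6 at the A/A tip were far above the other A/A rams in ram 835507, at 3.56 and 14.2 CPM. The mid-tail change of HOXB2 against the base, in log2(CPM + 0.5), was -0.75 in D/D ram 871868. The mid-tail change of HOXB8 was 1.16 in A/A ram 871772, whose base sum held 14 HOXB8 counts.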

How the results depend on the processing

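HOXB13 passed at the tip of A/A rams and over the 7 rams in every alternative run. With DESeq2 on ram sums the number of HOXB genes called was 2 at the A/A tip (HOXB13 and HOXB3), 1 at the D/D tip, 2 at the tip over the 7 rams (HOXB13 and HOXB8), 1 at the mid-tail over the 7 rams, and 1 each between alleles at the mid-tail and the tip. With single libraries, which treat the libraries of a ram as separate samples, it was 4, 3, 1, 4 and 3 at the A/A tip, A/A mid-tail, D/D tip, tip and mid-tail over the 7 rams, and 1 for the alleles at the tip; with the library number as a replicate block it was 3, 3, 1, 4, 2 and 1. Without the ram block it was 1 at the mid-tail over the 7 rams. The A/A mid-tail count was 0 with limma-voom and with library 1 or library 2 alone. RLE and no filter each gave 1 at the D/D tip, and no filter gave 1 at the mid-tail over the 7 rams. Leaving out 1 ram gave 0 to 1 at the A/A mid-tail, D/D tip and mid-tail over the 7 rams. In the comparison of HOXB13 with each neighbour, 7 to 8 tests passed when 1 ram was left out, and genotype differences without 1 ram could not reach 0.05 and are values only.

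Of the 89 values of the 9 genes over all comparisons, printed or not, 38 had the other sign in at least 1 alternative (74 of 1397 alternative values). Among those printed, at the tip over the 7 rams, HOXB2 was -0.12 with library 1 alone and -0.050 to 0.18 when 1 ram was left out, HOXB4 was -0.27 to 0.024, HOXB5 was -0.10 with library 2 alone and -0.24 to 0.39, and HOXB7 was -0.24 with library 1 alone and -0.014 to 0.11. HOXB3 at the D/D tip was -0.021 with single libraries, -0.019 with the library number as a block, -0.094 with library 1 alone and -0.13 to 0.12. For A/A over D/D at the tip, HOXB4 was -0.023 and HOXB9 -0.046 with library 2 alone, and HOXB8 was -0.085 with limma-voom, -0.0015 with no filter, -0.018 with library 2 alone and -0.27 to 0.21. For the difference of the tip change, HOXB2 was -0.25, HOXB4 -0.33 and HOXB9 -0.12 with library 2 alone, and HOXB4 was -0.20 to 0.41 when 1 ram was left out. The cause was not tested.

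Over all genes the counts called ranged with the alternative from 18 to 1313 at the A/A tip (308 as reported), 1 to 915 at the D/D tip (111), 122 to 2174 at the tip over the 7 rams (855), 0 to 411 at the A/A mid-tail (5), 0 to 56 at the D/D mid-tail (0), 0 to 417 at the mid-tail over the 7 rams (26), 0 to 23 for the difference of the tip change (0), and 0 to 18, 31 and 95 between alleles at the base, mid-tail and tip (0 each). The 2 or fewer counts of HOXB13 per group at the base limit every fold change against it.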
